A study of Mus musculus with 12 samples.

Results

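The translation initiation factors examined here are the genes whose symbols begin with Eif followed by a digit from 1 to 6 and whose mean level over all libraries was at least 4 on the deposited log2 scale. Of the 25124 entries in the expression table, 55 had such a symbol and 54 reached that level. The remaining one, Eif4e1b, had a mean of -1.97 and was not tested. The entries Eif3j1 and Eif3j2 are listed at the same place on chromosome 2 (122028580 to 122053632 and 122028583 to 122053631, plus strand, mm10), so the 54 entries are 53 loci, and counts that include both are also given with that locus counted once. The members with the lowest means were Eif2s3y at 4.41, Eif4e3 at 5.18 and Eif4ebp3 at 6.43. Levels were measured by poly(A) RNA sequencing in MC3T3-E1, a mouse calvarial line used as a model of osteoblast precursors, so all libraries come from 1 cell line. Every group was kept for 30 min in medium with serum reduced to 2.5%, and the 4 groups of 3 libraries were untreated cells, cells given TNFa at 10 ng/mL, cells given BMP4 at 10 ng/mL, and cells given both factors. According to the treatment protocol TNFa was added 30 min before BMP4, which was then present for 3 h, whereas the sample annotation gives 3 h for each factor. The titles of the TNFa libraries also carry the term p65, which the labels do not explain. Replicate 1 of each group belongs to 1 batch and replicates 2 and 3 to another, and nothing in the labels says that replicates were separate cultures, so p-values measure the spread between these libraries, which may be technical.

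Initiation in eukaryotes begins when eIF2 carries the initiator transfer RNA to the small ribosomal subunit, which is already bound by eIF1, eIF1A, eIF3 and eIF5. The eIF4F complex, made of the cap-binding eIF4E, the scaffold eIF4G and the RNA helicase eIF4A, then recruits the messenger RNA, and eIF5B joins the large subunit after the start codon is found. Supply of active eIF2 is limited by its exchange factor eIF2B and by kinases that phosphorylate eIF2, and supply of eIF4E is limited by the 4E-binding proteins. Osteoblasts secrete large amounts of collagen, and TNFa and BMP4 are known to act on their differentiation in opposite directions.

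The libraries held between 13.7 and 15.5 M tags, apart from replicate 2 of the combined treatment with 20.6 M. Of the osteoblast-lineage markers, Col1a1 (17.26), Col1a2 (17.49), Spp1 (12.54), Runx2 (10.31) and Sp7 (5.29) were above the minimum level, while Alpl (0.35), Bglap (-0.03) and Ibsp (-1.23) were below it. Among markers of other cell types, the macrophage genes Adgre1 and Ptprc, the adipocyte gene Adipoq and the endothelial genes Cdh5 and Kdr had means at or below 0, while Cd68 (4.49), Lyz2 (4.71), Pecam1 (4.95), Acta1 (4.25) and Comp (4.01) were little above the minimum. Of the other cartilage genes, the collagen gene Col2a1 had a mean of 14.95, while Acan was at 0 in every library. The skeletal muscle genes Myod1 (-1.73), Myog (-1.97) and Ckm (-2.21) were below 0, unlike Acta1. Since RNA was taken from whole cultures, fewer cells expressing a gene and less RNA per cell cannot be told apart. No fold change here is a measure of protein.

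RefSeq promoter windows, running from 250 bases before to 50 bases after the transcript start (GRCm38.p6), were available for 43 of the 54 members. Those for Eif1a, Eif2b3, Eif3e, Eif3h, Eif3i, Eif3j2, Eif4e3, Eif4ebp1, Eif4ebp3, Eif4g2 and Eif6 were not used here, and the window of Eif2ak1 starts 54070 bases from the transcript that was counted. The interferon-stimulated response element (GAAA, any 2 bases, GAAA), searched on both strands, was found in Eif2ak2, Eif2s1, Eif2s3x and Eif3a, and in 3.44% of all 32851 promoters. The window of Eif2ak2 is shown because this kinase gene had the greatest TNFa difference among the members on the deposited log2 scale (Eif4e3 is ahead of it in the authors' deposited table); it lies on the minus strand at chr17:78882523-78882822, and the capitals mark the element, which begins 18 bases after the start.
Eif2ak2: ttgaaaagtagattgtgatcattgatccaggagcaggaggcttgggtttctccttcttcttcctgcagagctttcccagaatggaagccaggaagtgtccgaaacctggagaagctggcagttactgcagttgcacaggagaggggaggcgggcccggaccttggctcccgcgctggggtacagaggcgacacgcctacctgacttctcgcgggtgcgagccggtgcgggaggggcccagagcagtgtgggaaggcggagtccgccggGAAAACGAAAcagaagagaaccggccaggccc

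The E-box CACGTG, a palindrome that reads the same on both strands, was found in 9 of the 43 windows and in 7.15% of all promoters. The 9 members were Eif1b, Eif3a, Eif3f, Eif3k, Eif4a1, Eif4g1, Eif4h, Eif5a and Eif5a2. The matches of the 4 of these genes that were higher after combined treatment are shown in 30-base stretches, with the E-box in capitals. Of all members, 48.1% were higher after that treatment, so 4 of 9 is not a larger share. They lie at chr19:60790654-60790683 (minus strand, Eif3a), chr11:69672595-69672624 (minus, Eif4a1), chr16:20672661-20672690 and chr16:20672730-20672759 (plus, Eif4g1) and chr11:69921443-69921472 (minus, Eif5a).
Eif3a: ccgcgagggaatCACGTGgttccttccttt
Eif4a1: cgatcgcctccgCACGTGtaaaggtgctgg
Eif4g1 upstream match: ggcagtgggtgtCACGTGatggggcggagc
Eif4g1 downstream match: ctctgcgccggtCACGTGgggcgctggctg
Eif5a: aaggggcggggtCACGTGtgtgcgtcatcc

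The GC-rich sequence GGCGCC, bound by Smad proteins, which carry BMP signals, matched in 15 of 43 members and in 11.9% of all promoters. The NF-kappaB motif, the site of the factor that TNFa activates, matched in 1 member, Eif2ak4, and in 8.46% of promoters. A pyrimidine tract beginning with C at the first transcribed base, the feature of messages whose translation follows mTOR, was present in Eif2s3x and Eif3f and in 2.51% of promoters. The set of all promoters was not limited to expressed genes or to 1 window per gene, unlike the members, so the shares are not like for like. These matches describe the sequence windows only.

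Levels were compared between genes after subtracting the log2 of transcript length in kilobases from the mean log2 level. On that per-length scale Eif5a, the hypusine-containing factor that helps ribosomes through difficult peptide bonds, was highest at 13.14. It was followed by Eif1, which guards start-codon choice, at 12.86 and the helicase gene Eif4a1 at 12.34. The eIF3 subunit genes Eif3h (11.74) and Eif3f (11.51) and the helicase cofactor gene Eif4b (11.45) came next. The lowest were Eif2s3y (3.59), the Y-linked gene of the eIF2 gamma subunit, Eif4e3 (3.86) and Eif5a2 (5.93). Within the cap-binding step, Eif4e stood at 7.88 and Eif4e2 at 8.84, against 10.40 for Eif4ebp1 and 9.16 for Eif4ebp2, the genes of proteins that sequester eIF4E. Before length was subtracted their means were 10.19, 10.63, 10.36 and 9.99 in that order. The gap therefore rests on the transcript length listed for each gene. Low levels in the deposited table are compressed relative to the authors' deposited fold changes, as compared for TNFa against untreated only. For genes with mean levels of 4 to 6, differences of the plain group means had a slope of 0.259 against those fold changes. The slope rose to 0.916 above 10. Noise in low-level fold changes can also lower such a slope.

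**Figure D1:**
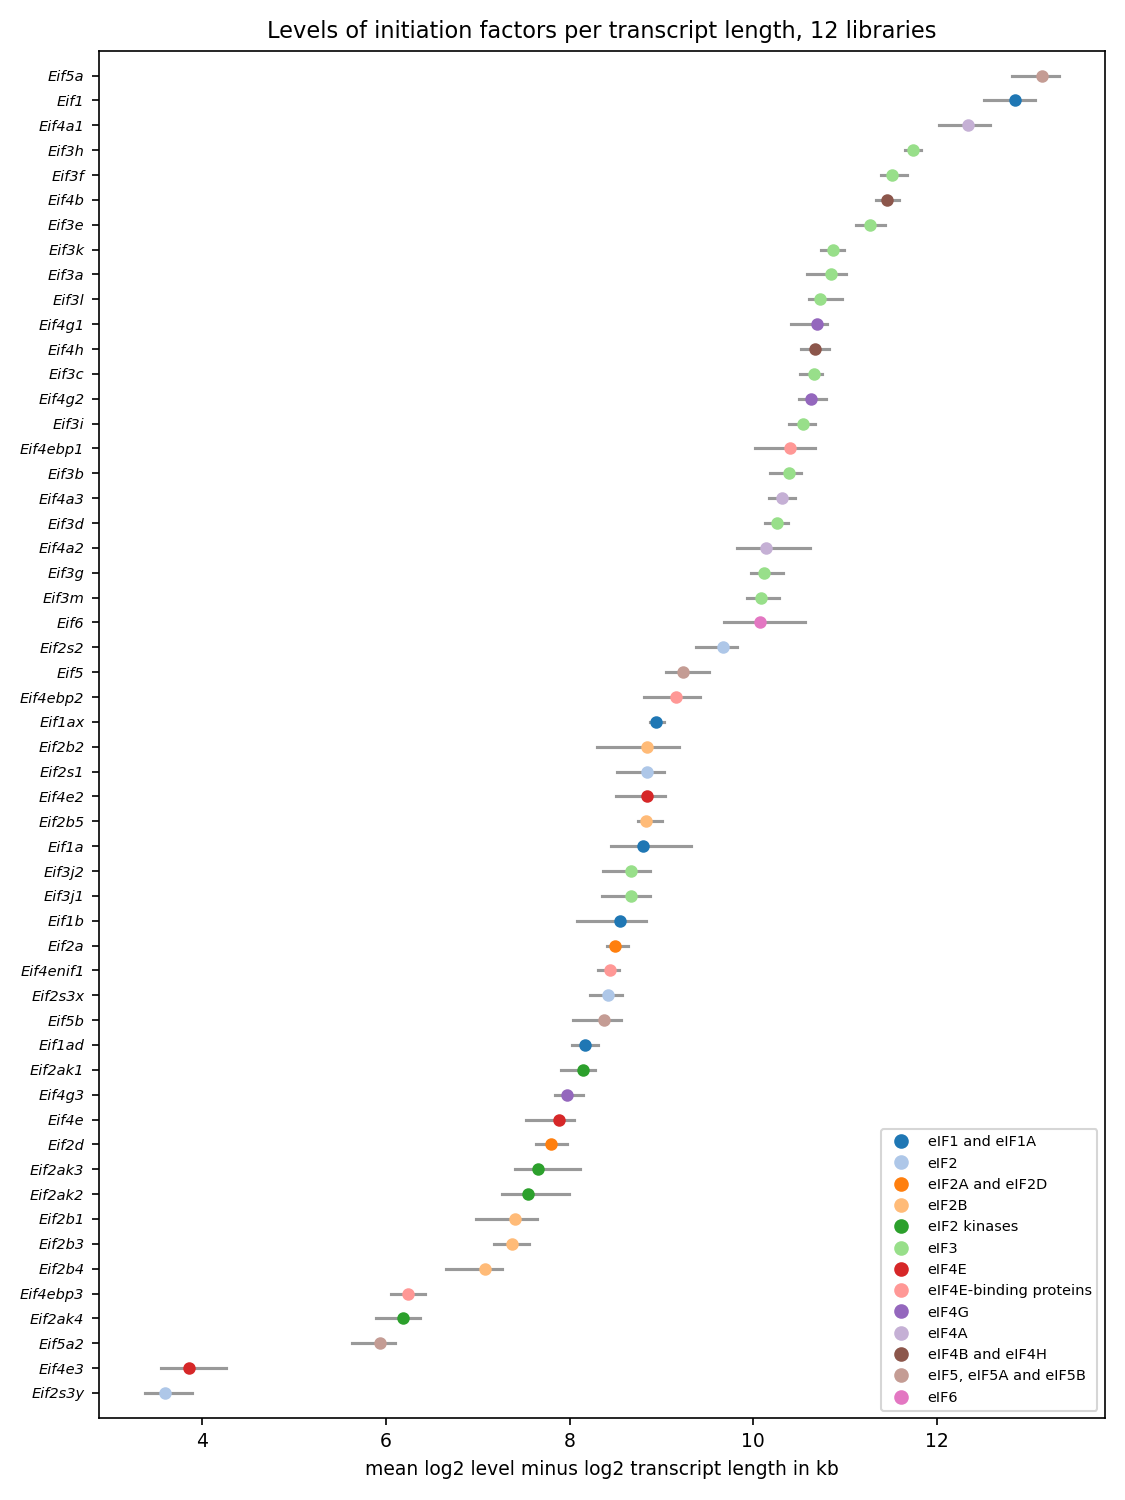
Mean log2 level minus log2 transcript length in kb for each of the 54 members (points, coloured by role class), with grey lines from the lowest to the highest of the 12 libraries. Eif5a (13.14) and Eif1 (12.86) are at the top and Eif2s3y (3.59) and Eif4e3 (3.86) at the bottom.

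TNFa alone raised 9 of the 54 members and lowered none (limma with batch as a term, Benjamini-Hochberg adjusted p below 0.05 over 11765 genes). These were 3 of the 4 eIF2 kinase genes, Eif6, Eif4e3, Eif1a, Eif3a, Eif3c and Eif5a. The 9 are 16.7% of the members, where 9.16% of all tested genes were higher, 6.32% lower and 15.5% called in either direction, so the share called in either direction was close to that of all genes. The median log2 difference was 0.07 among members and -0.01 among all genes. After quantile normalization it was 0.03 among members and -0.0249 among all genes. That normalization also called Eif1 lower with TNFa (-0.16, adjusted p = 0.00678, against -0.09 and 0.182 without it). None of the 4 eIF2, 5 eIF2B, 3 eIF4G, 3 eIF4A or 4 eIF4E-binding protein genes was called. The greatest differences in those classes were 0.15 ± 0.07 for Eif2s2, 0.12 ± 0.07 for Eif2b3, 0.13 ± 0.05 for Eif4g1, -0.17 ± 0.09 for Eif4a2 and 0.15 ± 0.09 for Eif4ebp3.

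Eif2ak2 encodes PKR, the kinase that phosphorylates eIF2 on sensing double-stranded RNA. Its log2 levels were 9.37, 9.61 and 9.49 in untreated libraries 1 to 3, and 10.10, 9.98 and 9.95 with TNFa. They were 9.42, 9.47 and 9.45 with BMP4, and 9.64, 9.72 and 9.70 with both. All TNFa libraries lay above every other library, and the combined libraries lay between those of TNFa and the other groups. The difference between TNFa and untreated was 0.52 ± 0.06 (log2, SE; adjusted p = 2.81e-06), at 0.73 in batch 1 and 0.42 in batch 2.

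The genes of the other kinases moved less. Eif2ak3 encodes PERK, the kinase of the endoplasmic reticulum. It measured 9.65, 9.59 and 9.57 untreated and 10.01, 9.85 and 9.94 with TNFa, with no overlap and a difference of 0.33 ± 0.06 (adjusted p = 0.000545). Eif2ak4 encodes GCN2, which responds to amino acid shortage. Its levels of 8.26, 8.36 and 8.44 untreated and 8.55, 8.65 and 8.74 with TNFa also did not overlap, with a difference of 0.29 ± 0.07 (adjusted p = 0.00636). Between TNFa and untreated libraries 17% of all tested genes had no overlap, in either direction. Eif2ak1, the gene of the heme-regulated kinase, differed by 0.09 ± 0.06 and was not called.

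Eif6 encodes a factor that binds the large ribosomal subunit and keeps it from joining the small one before it is released. Its levels were 10.25, 10.30 and 10.49 untreated, 10.80, 10.76 and 10.89 with TNFa, 10.50, 10.37 and 10.47 with BMP4, and 11.14, 10.95 and 10.91 with both. The libraries with TNFa, alone or with BMP4, were all above those without it. The TNFa difference was 0.47 ± 0.07 (adjusted p = 2.93e-05).

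Eif1a, a gene of the scanning factor eIF1A, had levels of 10.26, 10.07 and 9.98 untreated, 10.58, 10.30 and 10.31 with TNFa, 10.35, 10.11 and 10.21 with BMP4, and 10.84, 10.46 and 10.41 with both. Batch 1 was the higher batch in every group, and within each batch the TNFa libraries were above the untreated ones. The difference was 0.29 ± 0.06 (adjusted p = 0.000655). The related genes Eif1ax and Eif1b differed by 0.02 ± 0.05 and -0.17 ± 0.07 and were not called.

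Eif4e3 encodes an eIF4E relative and was among the least abundant members, with levels of 5.17, 4.87 and 4.91 untreated and 5.58, 5.30 and 5.40 with TNFa. The difference of 0.44 ± 0.08 (adjusted p = 0.000633) is on the compressed part of the scale, and the authors' deposited table gives a log2 fold change of 1.39 for it. Eif3a, the largest eIF3 subunit gene, differed by 0.24 ± 0.05 (adjusted p = 0.00307), Eif5a by 0.19 ± 0.05 (adjusted p = 0.00763) and Eif3c by 0.18 ± 0.05 (adjusted p = 0.0103). Eif5a and Eif3c had adjusted p of 0.0662 to 0.0671 without untreated replicate 1, and Eif3c had 0.0612 without TNFa replicate 2. The count rose to 14 without BMP4 replicate 1 and was 3 in a fit with no batch term.

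BMP4 alone raised 11 members and lowered none. These were 2 of 5 eIF2B genes, 4 entries of eIF3, 2 of 3 eIF4G genes, Eif4a1, Eif5b and Eif1, and no kinase, eIF2, eIF4E or eIF6 gene was among them. Counted by locus they are 10 of 53 (18.9%), with 3 of 13 loci of eIF3. The 11 entries are 20.4% of the members, where 6.75% of all genes were higher, 5.47% lower and 12.2% called in either direction. The median difference was 0.09 among members and 0.00 among all genes, or 0.05 and -0.0045 after quantile normalization. In the classes with no call, the greatest differences were 0.20 ± 0.07 for the kinase gene Eif2ak4, 0.17 ± 0.05 for Eif2s3x, 0.16 ± 0.07 for Eif4e, 0.10 ± 0.07 for Eif6 and -0.07 ± 0.06 for Eif4ebp1.

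Eif2b2 encodes the beta subunit of eIF2B, the factor that reloads eIF2 with GTP. Its levels were 9.03, 9.37 and 9.47 untreated, 8.97, 9.49 and 9.50 with TNFa, 9.61, 9.80 and 9.87 with BMP4, and 9.48, 9.78 and 9.82 with both. Every BMP4 library was above every untreated library, and the difference was 0.47 ± 0.06 (adjusted p = 2.92e-05), at 0.58 in batch 1 and 0.42 in batch 2. Between BMP4 and untreated libraries 14.6% of all tested genes had no overlap, in either direction. The gamma subunit gene Eif2b3 was higher by 0.25 ± 0.07 (adjusted p = 0.0301). The other 3 eIF2B genes, Eif2b1, Eif2b4 and the catalytic Eif2b5, differed by -0.03 ± 0.07, 0.02 ± 0.08 and 0.05 ± 0.06 and were not called.

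Genes of the eIF4A and eIF4G classes were among those that rose. Eif4a1 had levels of 12.92, 13.22 and 13.16 untreated and 13.12, 13.36 and 13.42 with BMP4. The groups overlapped because of the batch offset, and within each batch the difference was 0.20 (0.20 ± 0.05 in all, adjusted p = 0.0147). Eif4g2, the gene of a scaffold protein that lacks the eIF4E-binding region, had levels of 13.46, 13.57 and 13.50 untreated and 13.75, 13.67 and 13.70 with BMP4, a difference of 0.20 ± 0.05 without overlap (adjusted p = 0.00625). Eif4g1 differed by 0.17 ± 0.05 (adjusted p = 0.0397), with 0.37 in batch 1 and 0.08 in batch 2.

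Eif5b, the gene of the GTPase of subunit joining, had levels of 10.99, 11.36 and 11.21 untreated and 11.52, 11.45 and 11.47 with BMP4, a difference of 0.29 ± 0.07 (adjusted p = 0.00533). Its difference was 0.53 in batch 1 and 0.18 in batch 2, and the low library was untreated replicate 1. Eif3j1 and Eif3j2, which encode the loosely attached subunit eIF3j, both rose by 0.25 ± 0.06 (adjusted p = 0.01 and 0.00981). Their levels were nearly identical in all libraries, since both entries are read from 1 locus, and the table gives no separate value for the gene Eif3j2. Eif3a rose by 0.22 ± 0.05, Eif1 by 0.16 ± 0.04 and Eif3b by 0.15 ± 0.05 (adjusted p = 0.00951, 0.0212 and 0.0412). Without untreated replicate 1 a single member, Eif2b2, remained called, and the other 10 had adjusted p of 0.0506 to 0.3; without BMP4 replicate 3 the count was 6. After quantile normalization or without a variance trend 7 members were called, and none with no batch term. The share of all genes called in those fits is not given here. A difference between batches was called for 64.1% of all tested genes.

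With both factors, 26 members rose and 1 fell, or 25 and 1 of the 53 loci (47.2% higher). The entries are 48.1% and 1.85% of the members, where 16.8% of all genes were higher, 14.4% lower and 31.2% called in either direction. The median difference was 0.15 among members and 0.00 among all genes, or 0.10 and -0.0173 after quantile normalization. A positive difference was seen in 47 members. Among the 7711 genes with a mean log2 level of at least 8, a level chosen after the data were seen, 21% were higher, and 25 of the 50 members at that level were higher. Quantile normalization gave 17 higher and 1 lower, and batch 2 alone gave 20 higher and none lower.

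**Figure D2:**
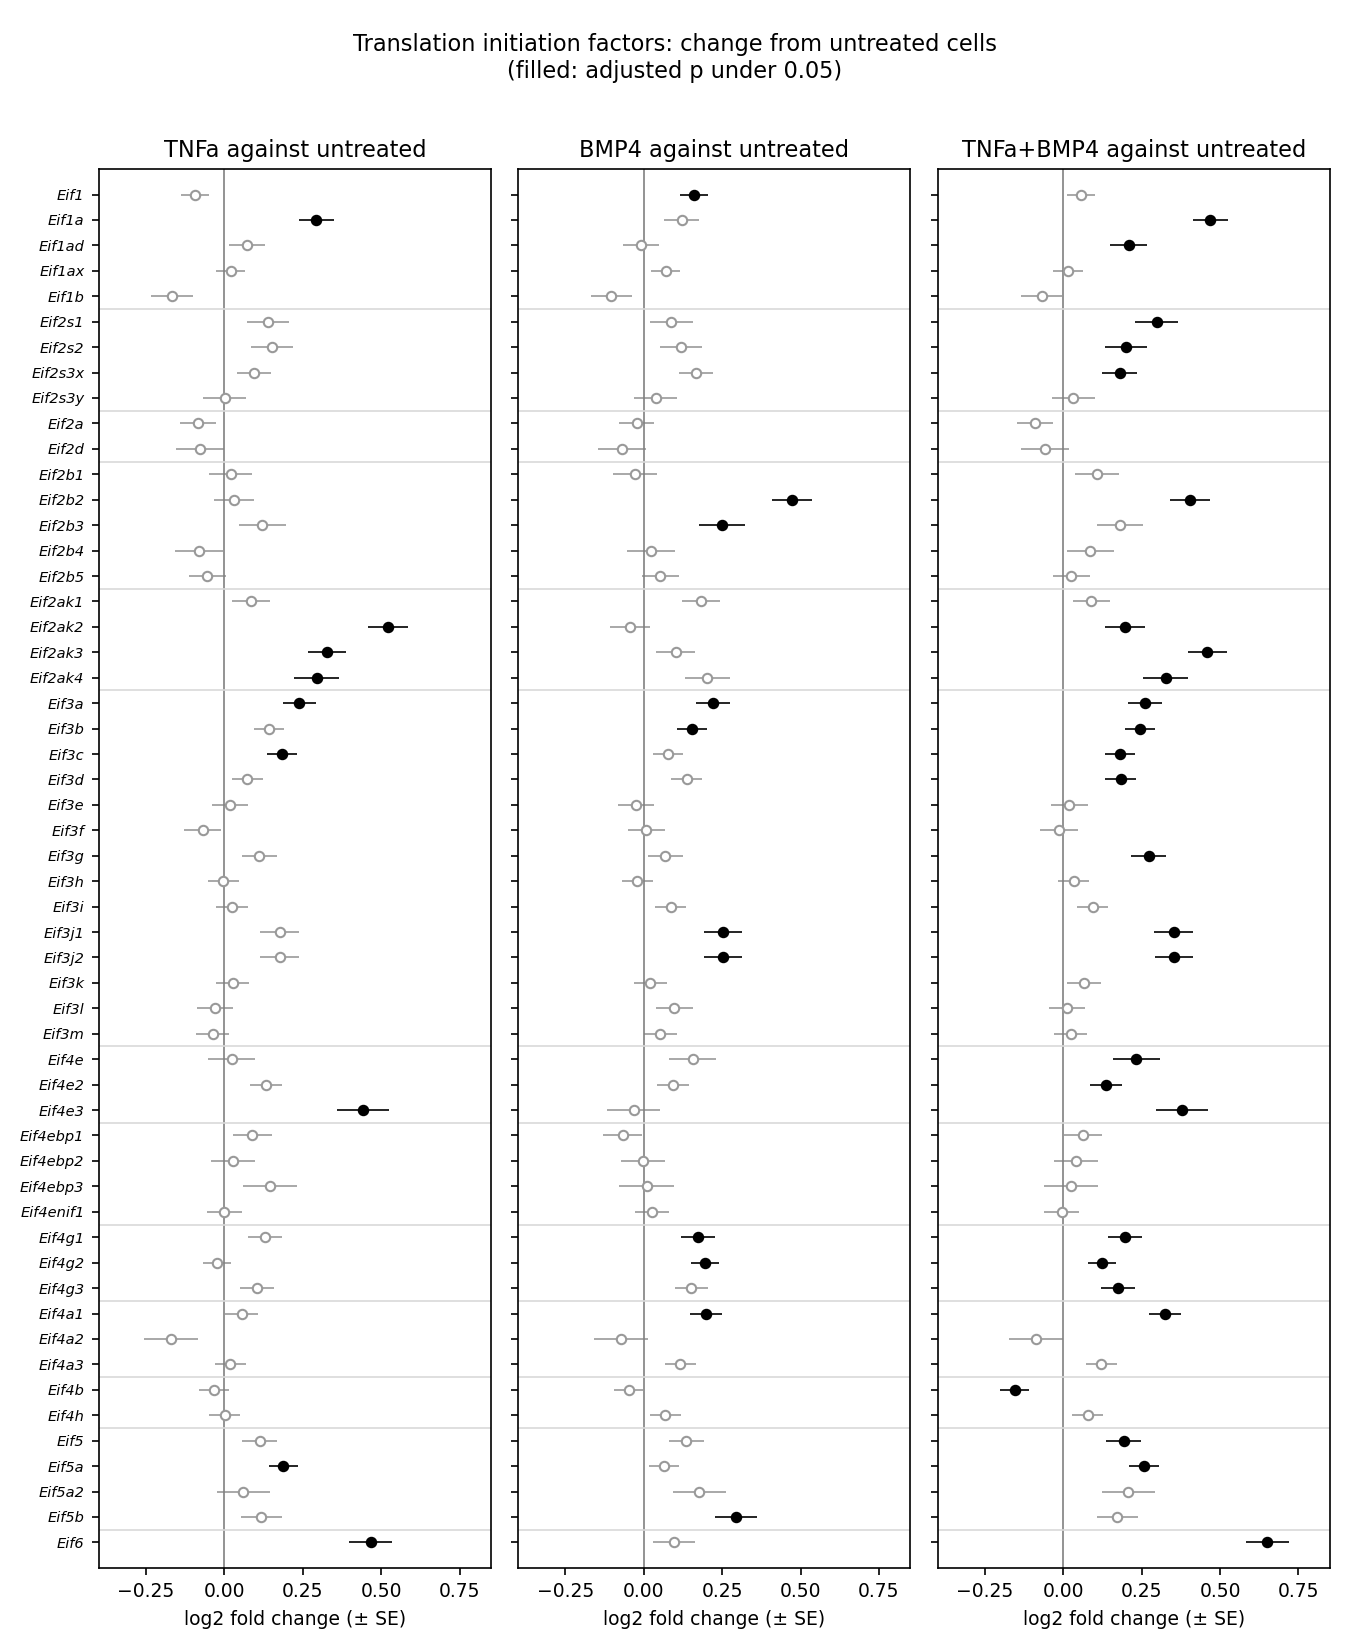
Log2 fold change from untreated cells for each member, by role class from top to bottom, with TNFa on the left, BMP4 in the middle and both on the right; bars are the SE and filled points passed adjusted p of 0.05. The right panel has 27 filled points, of which Eif4b alone is below 0.

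Of the 4 eIF2 subunit genes, Eif2s1 (alpha, the subunit that the kinases phosphorylate), Eif2s2 (beta) and Eif2s3x (gamma) rose. Eif2s1 had levels of 10.24, 10.45 and 10.40 untreated and 10.65, 10.68 and 10.65 with both factors, without overlap. Its difference was 0.30 ± 0.07 (adjusted p = 0.00205), and those of Eif2s2 and Eif2s3x were 0.20 ± 0.07 and 0.18 ± 0.05 (adjusted p = 0.0275 and 0.0163). The call for Eif2s2 was lost after quantile normalization (adjusted p = 0.213) and under 4 other alternatives, and that of Eif2s3x after quantile normalization (adjusted p = 0.103) and with no batch term. With a single factor these 3 genes differed by 0.09 to 0.17 and were not called. Eif2s3y, near the minimum level for testing, differed by 0.03 ± 0.07, and Eif2a and Eif2d, the genes of alternative initiator factors, by -0.09 ± 0.06 and -0.06 ± 0.08.

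In the kinase class, Eif2ak3 was higher by 0.46 ± 0.06 (adjusted p = 6.26e-06), Eif2ak4 by 0.33 ± 0.07 (adjusted p = 0.00152) and Eif2ak2 by 0.20 ± 0.06 (adjusted p = 0.0228). Eif2ak3 levels of 10.28, 9.90 and 10.00 with both factors were above all untreated libraries. Eif2b2 was higher by 0.40 ± 0.06 (adjusted p = 5.1e-05), and the other 4 eIF2B genes differed by 0.03 to 0.18 and were not called.

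Among the 14 eIF3 entries, 7 rose, which are 6 of 13 loci: Eif3j1 and Eif3j2 by 0.35 ± 0.06 each, Eif3g by 0.27 ± 0.06, Eif3a by 0.26 ± 0.05, Eif3b by 0.24 ± 0.05, Eif3d by 0.18 ± 0.05 and Eif3c by 0.18 ± 0.05 (adjusted p between 0.000161 and 0.00735). Eif3g had levels of 10.08, 10.06 and 10.10 untreated and 10.38, 10.26 and 10.40 with both, 2 narrow groups that did not overlap. In that comparison 25.4% of all tested genes had no overlap, in either direction. The other 7, Eif3e, Eif3f, Eif3h, Eif3i, Eif3k, Eif3l and Eif3m, differed by -0.01 to 0.09 and were called in no comparison. Subunits a and c belong to the same octameric core as e, f, h, k, l and m, so the genes of the core did not all pass the test; subunits b, g and i form the module that contacts the small subunit near the entry of the messenger RNA.

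All 3 eIF4E genes and all 3 eIF4G genes rose, but after quantile normalization only Eif4e3 kept its call and the adjusted p of the other 5 ran from 0.0541 to 0.743. Eif4e had levels of 9.84, 10.34 and 10.09 untreated and 10.29, 10.32 and 10.36 with both, with overlap and a difference of 0.23 ± 0.07 (adjusted p = 0.0209) that was 0.46 in batch 1 and 0.12 in batch 2. Eif4e3 was higher by 0.38 ± 0.08 and Eif4e2, whose product binds caps but represses translation, by 0.14 ± 0.05. The eIF4G genes rose by 0.20 ± 0.05 (Eif4g1), 0.18 ± 0.05 (Eif4g3) and 0.12 ± 0.05 (Eif4g2).

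None of the 4 eIF4E-binding protein genes was called in any comparison, although after quantile normalization Eif4ebp1 was called higher with TNFa than with BMP4 (0.17, adjusted p = 0.0473). Eif4ebp1 had levels of 9.99, 10.41 and 10.64 untreated, 10.03, 10.63 and 10.64 with TNFa, 10.02, 10.42 and 10.38 with BMP4 and 10.01, 10.63 and 10.58 with both, so that batch 1 was low in all groups and treatments overlapped. Its difference with both factors was 0.06 ± 0.06, that of Eif4ebp2 0.04 ± 0.07, that of Eif4ebp3 0.02 ± 0.09 and that of Eif4enif1, the eIF4E transporter gene, -0.005 ± 0.055.

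Of the helicase genes, Eif4a1 had levels of 13.40, 13.39 and 13.48 with both factors, above every untreated library, and a difference of 0.32 ± 0.05 (adjusted p = 5.88e-05). Its paralog Eif4a2 differed by -0.09 ± 0.09 and Eif4a3, which works in the exon junction complex, by 0.12 ± 0.05, and neither was called. Eif4b, a cofactor of the helicase, was the member that fell. Its levels were 13.52, 13.41 and 13.42 untreated and 13.28, 13.30 and 13.32 with both, without overlap, and it decreased by 0.16 ± 0.05 (adjusted p = 0.0148). Eif4h, a related cofactor gene, differed by 0.08 ± 0.05.

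At the later steps, Eif6 was higher by 0.65 ± 0.07 (adjusted p = 2.22e-07), the greatest difference among the members on the deposited scale, with 0.88 in batch 1 and 0.53 in batch 2. In the authors' deposited table its log2 fold change is 0.71, below the 1.23 of the low-level gene Eif4e3. Eif5a rose by 0.26 ± 0.05 and Eif5, the gene of the GTPase-activating protein of eIF2, by 0.19 ± 0.06 (adjusted p = 0.000259 and 0.0112). Eif5b differed by 0.17 ± 0.07 and did not pass (adjusted p = 0.0524). At the start of the pathway, Eif1a rose by 0.47 ± 0.06 (adjusted p = 1.4e-06) and Eif1ad, which encodes an eIF1A-domain protein, by 0.21 ± 0.06 (adjusted p = 0.0091), while Eif1 differed by 0.06 ± 0.04. Of the 27 calls, 16 held whichever library was left out. The other 11 (Eif1ad, Eif2ak2, Eif2s2, Eif2s3x, Eif4b, Eif4e, Eif4e2, Eif4g1, Eif4g2, Eif4g3 and Eif5) lost theirs without at least 1 library, chiefly replicate 1 of the combined treatment (10 lost, adjusted p 0.0583 to 0.231) or of the untreated group (9 lost, 0.0528 to 0.22), and with no batch term 9 members were called.

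**Figure D3:**
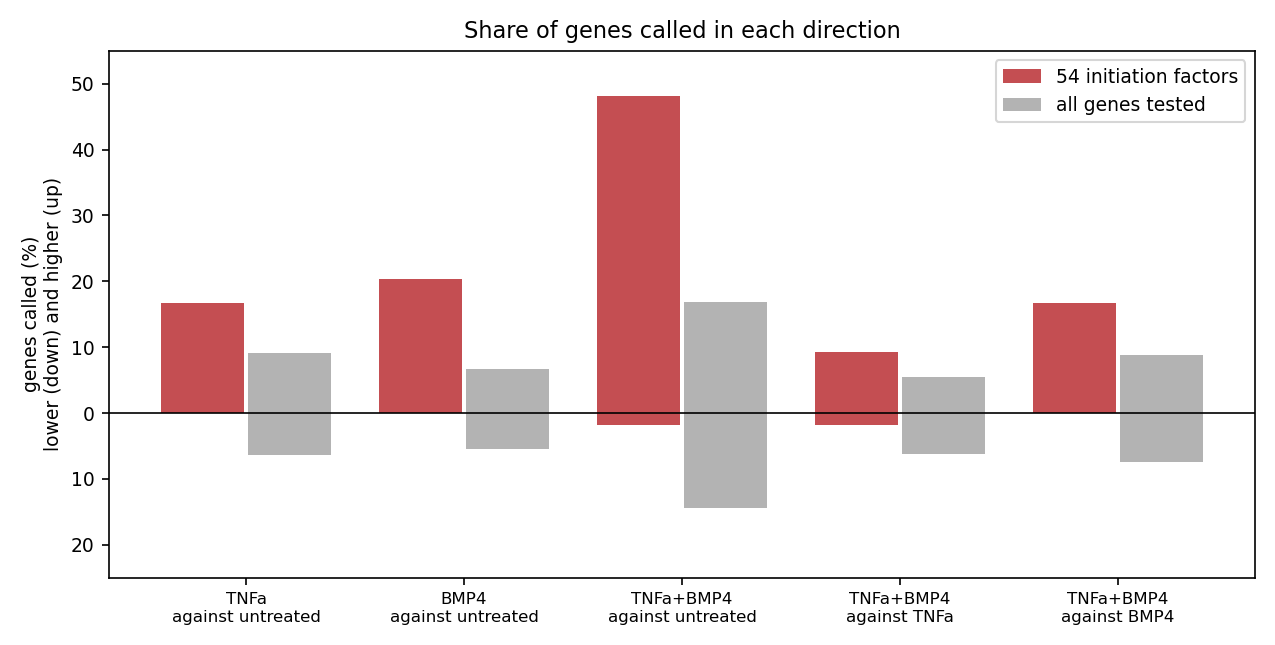
Percent of the 54 members (red) and of the 11765 genes tested (grey) called higher (upward bars) and lower (downward bars) in each comparison. With both factors against untreated, 48.1% of members and 16.8% of all genes were higher.

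Adding BMP4 to TNFa, compared with TNFa alone, raised 5 members and lowered 1. They are 9.26% and 1.85% of the members, where 5.47% of all genes were higher, 6.2% lower and 11.7% called either way, so the share of members called is near that of all genes. Those that rose were Eif2b2 by 0.37 ± 0.06, Eif4a1 by 0.27 ± 0.05, Eif1a by 0.18 ± 0.06, Eif1 by 0.15 ± 0.04 and Eif4g2 by 0.15 ± 0.05. Eif2ak2 fell by 0.33 ± 0.06 on the log2 scale (adjusted p = 0.00148). The calls for Eif2b2, Eif4a1 and Eif2ak2 held whichever library was left out. Those of Eif1, Eif1a and Eif4g2 were each lost without certain single libraries (adjusted p 0.0514 to 0.284). The count was 3 without TNFa replicate 2, TNFa replicate 3 or replicate 1 of the combined treatment, and 10 without untreated replicate 1.

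Adding TNFa to BMP4, compared with BMP4 alone, raised 9 members and lowered none. The 9 are 16.7% of the members, where 8.78% of all genes were higher, 7.41% lower and 16.2% called in either direction, again close to the members' share. Eif6 was higher by 0.55 ± 0.07, Eif4e3 by 0.41 ± 0.08, Eif2ak3 by 0.36 ± 0.06, Eif1a by 0.35 ± 0.06 and Eif2ak2 by 0.24 ± 0.06. The same comparison gave 0.22 ± 0.06 for Eif1ad, 0.21 ± 0.07 for Eif2s1, 0.20 ± 0.06 for Eif3g and 0.19 ± 0.05 for Eif5a. Of these 4, all lost the call without replicate 1 of the combined treatment (adjusted p 0.0744 to 0.285), which left 5. Eif1ad, Eif2s1 and Eif3g also lost it without certain other single libraries (adjusted p 0.0545 to 0.313). Quantile normalization gave 8 higher and 1 lower, the lower one being Eif1 at -0.14 (adjusted p = 0.0144).

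**Figure D4:**
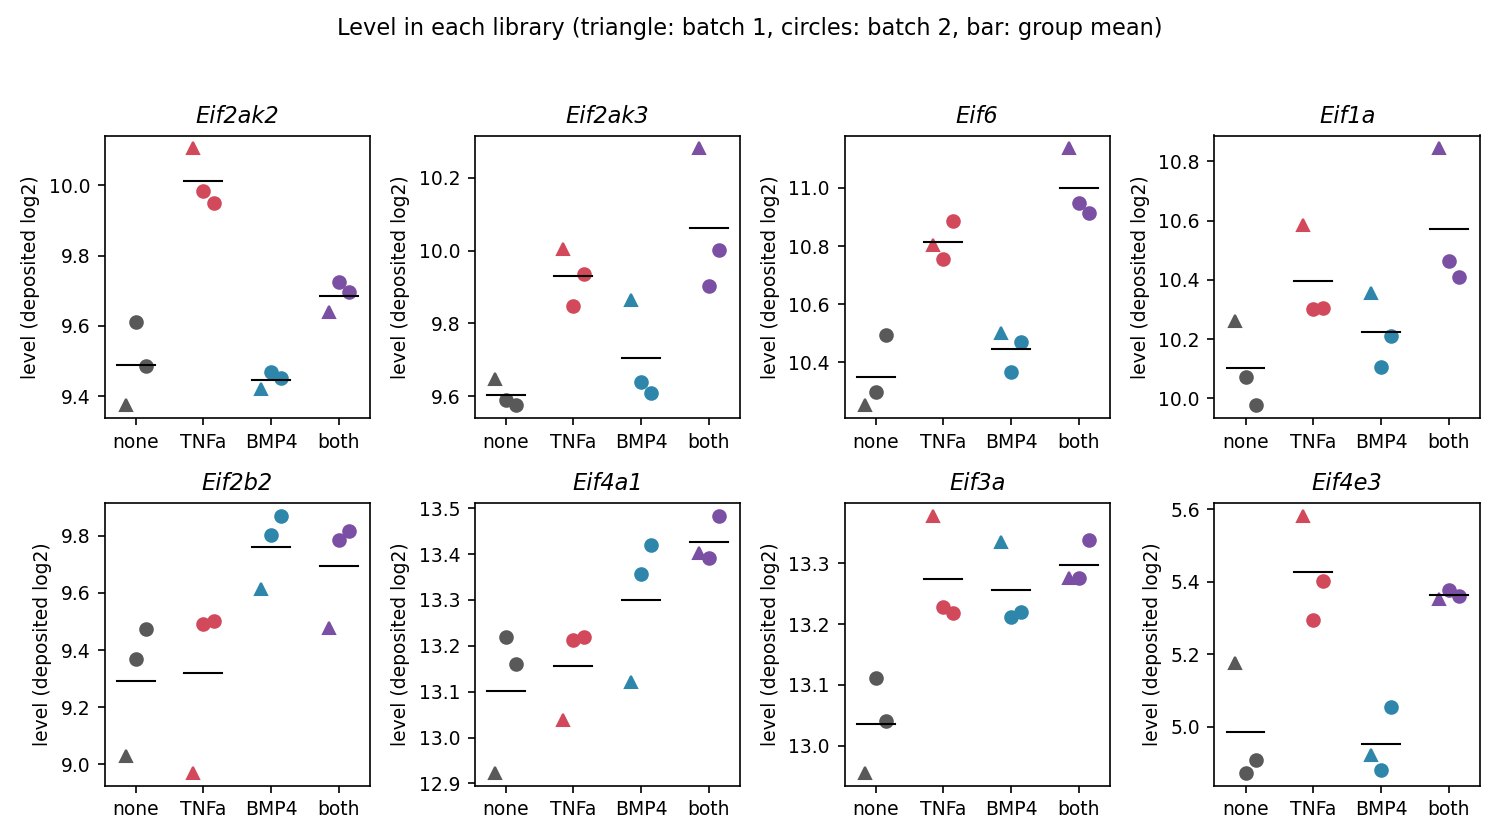
Deposited log2 level of 8 members in every library, with triangles for batch 1, circles for batch 2 and a bar at each group mean; the vertical axes differ between panels and do not start at 0. Eif2ak2 is highest with TNFa alone, Eif6 is high in both groups with TNFa, and Eif2b2 is high in both groups with BMP4.

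The 2 single treatments were also compared directly, a contrast added after the data were seen. With TNFa, 5 members were higher than with BMP4 and 3 were lower, where 11.5% of all genes were higher, 10.1% lower and 21.6% called either way, so the members' 8 calls are no more frequent than those of all genes. Eif2ak2 was higher with TNFa by 0.56 ± 0.06 (adjusted p = 5.63e-07), Eif4e3 by 0.48 ± 0.08, Eif6 by 0.37 ± 0.07, Eif2ak3 by 0.23 ± 0.06 and Eif1a by 0.17 ± 0.06. The members lower with TNFa than with BMP4 were Eif2b2 at -0.44 ± 0.06 (adjusted p = 1.74e-05), Eif1 at -0.25 ± 0.04 and Eif4g2 at -0.22 ± 0.05. Eif1 levels were 12.85, 13.17 and 13.17 with TNFa and 13.18, 13.36 and 13.40 with BMP4, without overlap, as for 20.4% of all tested genes in either direction. The call for Eif1a was lost without any TNFa replicate and without BMP4 replicate 1 or 2, and that of Eif2ak3 without TNFa replicate 3 (adjusted p 0.0698 to 0.134).

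Whether the effect of TNFa differed in the presence of BMP4 was tested as an interaction. No member was called by limma, and 2 genes of all those tested were, 1 higher and 1 lower (0.017% in all, 0.0085% each way). At an unadjusted p below 0.05 there were 5 members, or 9.26%, where 4.76% of all genes were below that value. The member with the lowest p was Eif2ak2, whose TNFa effect was smaller with BMP4 by a log2 interaction of -0.28 ± 0.09 (unadjusted p = 0.00489, adjusted p = 0.748). The others were Eif5b (-0.24 ± 0.09), Eif3a (-0.20 ± 0.08), Eif1b (0.20 ± 0.09) and Eif2ak1 (-0.18 ± 0.08). The SE of the interaction ran from 0.06 to 0.12 among members, and missing the threshold does not show that the effects were alike.

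Of the 54 members, 30 (55.6%) were called in at least 1 of the 5 comparisons of groups planned and 24 in none, where 39.6% of all genes were called in at least 1. The authors' deposited table, which used another method, called 11 members higher with TNFa, 8 with BMP4 and 18 with both, and 1 lower with both. Among all tested genes the authors' deposited table called 13%, 7.3% and 21.2% in those comparisons. The exons of 22 members overlap exons of another gene in the annotation, and the sources used here do not say whether strand was used in counting. The longest overlaps, all with genes on the opposite strand, are 2151 bases for Eif3d (Gm17638), 1643 for Eif5b (Rev1) and 1107 for Eif3j1 (Spg11). For Eif6 the overlap is 138 bases with the antisense gene Gm16098 and for Eif2ak2 174 bases with Gm26637 on the opposite strand. Eif4e3 shares 373 bases with Gm20696 on the same strand. Reads in any of these stretches cannot be assigned with certainty.

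The partners and regulators of initiation were followed as lists. In a list of 17 initiation partners, 2 rose and 1 fell with TNFa, 2 rose and 2 fell with BMP4, and 4 rose and 5 fell with both. These calls are 17.6%, 23.5% and 52.9% of the list, where 15.5%, 12.2% and 31.2% of all genes were called. Mknk1 and Mknk2, which encode the kinases that phosphorylate eIF4E, fell with both factors by 0.33 ± 0.07 and 0.36 ± 0.06 and with BMP4 by 0.39 ± 0.07 and 0.22 ± 0.06. Mknk1 also fell with TNFa, by 0.22 ± 0.07, where Mknk2 differed by -0.09 ± 0.06 and was not called. Denr, a factor of reinitiation, rose by 0.26 ± 0.06 with TNFa and 0.32 ± 0.06 with both, and Abce1, the ribosome-recycling ATPase, by 0.18 ± 0.05 with BMP4 and 0.26 ± 0.05 with both. Larp1, which binds pyrimidine-tract messages, rose by 0.17 ± 0.05 with TNFa, and Paip1, a partner of the poly(A)-binding protein, by 0.22 ± 0.06 with BMP4. The list's median difference with both was 0.04.

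Among 16 genes of the mTORC1 pathway, which controls the 4E-binding proteins by phosphorylation, 3 fell with TNFa, 1 rose and 1 fell with BMP4, and 4 fell with both. These calls are 18.8%, 12.5% and 25% of the list, where 15.5%, 12.2% and 31.2% of all genes were called, so the share with both was below that of all genes. Deptor, an mTOR-binding inhibitor, fell by 0.49 ± 0.09 with TNFa and 0.59 ± 0.09 with both. Sesn1 fell by 0.32 ± 0.07 with TNFa and 0.42 ± 0.07 with both. Sesn3, another sestrin, fell by 0.61 ± 0.08 with TNFa and by 0.31 ± 0.08 with both, and rose by 0.33 ± 0.08 with BMP4. Ddit4, a stress-induced inhibitor, fell by 0.49 ± 0.09 with BMP4 and 0.29 ± 0.09 with both. Other inhibitor genes of the list were not called, among them Sesn2, which differed by 0.23 with TNFa and 0.11 with both, Tsc1 by 0.02 and -0.08, and Tsc2 by -0.08 and -0.12. The list's median difference was -0.03 with either factor and -0.04 with both.

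Of 13 genes of the integrated stress response, the program that follows eIF2 phosphorylation, 3 rose with TNFa, none with BMP4 and 3 with both, and none fell. The calls are 23.1% of the list with TNFa and with both, where 9.16% and 16.8% of all genes were higher and 15.5% and 31.2% were called either way. Ddit3 rose by 0.44 ± 0.07 with TNFa and 0.35 ± 0.07 with both. Atf4, the main transcription factor of the program, rose by 0.21 ± 0.07 and 0.40 ± 0.07, Chac1 by 0.33 ± 0.08 with both, and Ppp1r15b, the gene of an eIF2 phosphatase subunit, by 0.18 ± 0.05 with TNFa. The list's median difference was 0.08 with TNFa, -0.01 with BMP4 and 0.12 with both.

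Of 10 genes listed under elongation and termination, 1 rose and 1 fell with TNFa, 2 rose and 1 fell with BMP4, and 3 rose and 1 fell with both. They are 20%, 30% and 40% of a list of 10, beside 15.5%, 12.2% and 31.2% of all genes. Eef2k, the gene of the kinase that inhibits eEF2, fell by 0.21 ± 0.06 with TNFa, 0.20 ± 0.06 with BMP4 and 0.51 ± 0.06 with both. Etf1, the release factor gene, rose by 0.18 ± 0.06, 0.30 ± 0.06 and 0.39 ± 0.06. Gspt1, the gene of its GTPase partner, rose by 0.33 ± 0.05 with BMP4 and 0.32 ± 0.05 with both. Eef1e1, an elongation factor gene in symbol only, rose by 0.45 ± 0.10 with both. The 82 genes tested with ribosomal protein symbols were picked by symbol alone, which takes in the L7-like gene Rpl7l1. None of the 82 was called with TNFa, and 1 rose and 1 fell with BMP4 and with both (2.44% each, beside the shares above). Rpl7l1 rose by 0.16 ± 0.05 and 0.25 ± 0.05, Rpl36 fell by 0.15 ± 0.05 with BMP4 and Rps29 fell by 0.17 ± 0.05 with both. The median differences of the 82 were -0.01, -0.02 and 0.01, against 0.07, 0.09 and 0.15 for the initiation factors in the same comparisons, which share their untreated libraries. After quantile normalization the initiation factors had medians of 0.03, 0.05 and 0.10 and all genes -0.0249, -0.0045 and -0.0173. The medians of the 82 were not computed after that normalization.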

How the data were processed

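The deposited table holds log2 levels for 12 poly(A) libraries (paired 150 bp reads), with the authors' log2 fold changes, p-values and adjusted p-values; the transformation behind the levels is not named, and the table gives no read counts. Per the file headers, exon tags were counted with HOMER on mm10, keeping 1 transcript per gene, and the authors' comparisons included batch. Trim Galore and HISAT2 are named in the submitters' processing notes, without versions.

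Genes with a mean log2 of at least 4 (11765 of 25124; 7423 were at 0 throughout) entered 1 model in limma 3.58.1 (R 4.3.3), with 4 groups plus batch, a variance trend, 7 residual degrees of freedom and Benjamini-Hochberg adjustment within each contrast at a threshold of 0.05. The code was tested on simulated data. Members and gene lists were chosen with earlier results of these data known. Named with values were members called in any contrast, the greatest change in each role class, a fixed set of central factors, and of each list at most 4 called genes per comparison with untreated cells, by size of change. Alternatives covered normalization, level filters, variance trend, batch, replicate number and leaving out each library. Promoter windows came from RefSeq and were searched for fixed motifs.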

Additional observations from a re-analysis of the deposited data

How the results depend on the processing

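Of 70 calls of a member in a comparison, 38 held whichever library was left out and 17 held under every alternative, and none changed direction. Calls that held whichever library was left out, but not under every alternative, were lost only with no batch term. The exception was Eif3d with both factors, also lost after quantile normalization. A difference between batches was called for 53.7% of members and 64.1% of all tested genes (limma, adjusted p below 0.05). With no batch term the members called numbered 3 for TNFa, 0 for BMP4 and 9 for both against untreated, 0 for both against TNFa, 1 for both against BMP4 and 4 for TNFa against BMP4. Quantile normalization gave 7 for BMP4 and took member medians against untreated from 0.07, 0.09 and 0.15 to 0.03, 0.05 and 0.10; without a variance trend the counts were 7 for BMP4 and 3 for both against TNFa. Batch 2 alone gave 13 for TNFa against BMP4. The cause of these differences was not tested. With 1 library left out, counts ran from 7 to 14 (TNFa), 1 to 14 (BMP4), 18 to 29 (both), 3 to 10 (both against TNFa), 5 to 10 (both against BMP4), 6 to 11 (TNFa against BMP4) and 0 to 0 (interaction). Counts under these alternatives, here and in the sections above, are given without the share of all genes called in the same fit. They are therefore not read as a result about the members.

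Replicate numbers 2 and 3 within batch 2 were checked for pairing. The difference between replicates 2 and 3 across genes correlated between groups at 0.02 to 0.164, not all above 0.1. Same-numbered libraries are therefore not taken as pairs. Deviations from group means correlated at 0.625 to 0.876 between same-numbered libraries, and these deviations include the batch offset. With the replicate block the counts were 9, 11 and 28 against untreated, 5 for both against TNFa, 9 for both against BMP4, 8 for TNFa against BMP4 and 0 for the interaction; Eif1a in both against TNFa had adjusted p = 0.0546 there. Without counts in the table, the depth behind single genes is not known, and changes of genes with low levels are understated relative to the authors' fold changes.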
